A study of Mus musculus with 4 samples.

Results

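Proximal limb bud mesenchyme is described here in 134 cells of the E11.5 library, out of 2640 cells kept in that library and 9958 kept in the series. They made up 5.08% of the kept E11.5 cells, with an exact Clopper-Pearson 95% interval of 4.27% to 5.98%. The members were chosen by their own unique molecular identifier (UMI, the tag that marks a single captured transcript) counts. Each had at least 200 detected genes and at most 10% mitochondrially encoded UMIs, at least 3 UMIs of Meis1 and Meis2 together, and no UMI of Hoxa13 or Hoxd13. Each also lacked any UMI of Cdh5, Pecam1, Epcam and Fcer1g, and none had at least 2 UMIs of Sox9 together with at least 3 of Col2a1. The levels of these genes in these cells are therefore not findings.

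The series profiled hindlimb cells of C57BL/6 mouse embryos at embryonic days 11.5, 13.5, 15.5 and 18.5, with 1 droplet (10x Genomics Chromium) library for each stage. Every library came from the pooled hindlimbs of several embryos of 1 litter, which were dissociated with collagenase and pronase, frozen, thawed and depleted of dead cells before capture. No stage has a second library, so cells are not replicates, no p-value is given, and every interval covers counting error alone. The proximal cells were set against the 1381 other kept E11.5 cells with at least 1 UMI of Prrx1, the homeobox gene that marks limb mesenchyme. The second reference, called matched mesenchyme, was the 859 of those 1381 cells that met the same exclusions on Cdh5, Pecam1, Epcam, Fcer1g and Sox9 with Col2a1. It was split into 481 cells with at most 2 Meis UMIs and no Hoxa13 or Hoxd13 UMI (Meis-low mesenchyme) and 378 cells with at least 1 UMI of Hoxa13 or Hoxd13 (Hox13-positive mesenchyme).

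In the early limb bud, mesenchyme near the body wall expresses the TALE homeobox genes Meis1 and Meis2, which retinoic acid can induce. Fibroblast growth factors from the ectodermal ridge at the tip oppose that state, and Hoxa13 and Hoxd13 mark the hand or foot plate. The proximal domain gives rise to the girdle and the thigh, and the Irx3 and Irx5 homeobox genes act in the proximal and anterior hindlimb of the mouse.

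Meis1 and Meis2 chose the cells, so their counts only describe the choice. Meis1 and Meis2 were both detected in 112 of the 134 cells, Meis2 alone in 18 and Meis1 alone in 4. The summed Meis count was 3 in 34 cells, 4 in 31, 5 in 11 and 6 or more in 58, with a median of 5 and a highest value of 17. Levels are given in counts per 1000000 UMIs of the group (CPM). Prrx1, which the rule did not require of the members, had 532 CPM in the proximal cells and 534 in matched mesenchyme, whose cells were all required to hold it, and 26 of the 134 proximal cells had no Prrx1 UMI. Irx3 or Irx5, also outside the rule, was detected in 73 of the 134 cells, and 61 had no UMI of either. Those 61 cells were shallower, with a median of 7489 UMIs against 9692 in the 73, so a lack of UMIs does not show a lack of expression.

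The proximal cells were somewhat shallower than the other Prrx1 cells, with a median of 8341 UMIs a cell (range 3281 to 28021), against 9677 in the other Prrx1 cells and 9056 in matched mesenchyme. Of the 1381 other Prrx1 cells, 522 fell outside matched mesenchyme, 182 of them for Cdh5 or Pecam1, 173 for Epcam, 22 for Fcer1g and 222 for Sox9 with Col2a1, with overlaps. Markers of other cell types reached 10 UMIs a cell in 2 proximal cells, of which one carried 84 UMIs of the epithelium list and the other 32 UMIs of the muscle progenitor list. The epithelium list summed to 93.9 CPM in the proximal cells and 34.7 in matched mesenchyme, and the muscle list to 30.8 and 13.2. With the top cell of each group left out, the epithelium list summed to 26.1 CPM in the proximal cells and 33.2 in matched mesenchyme, and the muscle list to 4.97 and 4.75. The endothelium list summed to 56.7 CPM in the proximal cells and 69.3 in matched mesenchyme, and the macrophage list to 4.05 and 2.84. Of 8 epithelium markers with at least 20 UMIs in the pair, 6 were called higher over matched mesenchyme by the rule given below. The 1 cell held 100% of the Krt15 UMIs, 93% of those of Wnt6 and 88% of those of Krt14, while Krt18 was spread over 38 cells with a ratio of 2.11 (1.5 to 2.91). Sox10, Foxd3, Ptprc, C1qa, Pax7 and Myog were at 0 in the proximal cells. A single proximal cell's barcode also occurred in another library, at E13.5.

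Among the genes that differed between proximal cells and the other mesenchyme, Irx3, Irx5, Pkdcc, Shox2 and Hoxc10 were higher, and Pmaip1, Sall1, Sall3, Zic2 and the 5′ Hoxd genes were lower. A gene was called higher or lower when its CPM differed at least 2-fold, the whole 95% interval of the ratio lay on that side of 1, and both groups together held at least 20 UMIs. Over the other Prrx1 cells, 334 of 12274 genes were higher (2.72%) and 357 were lower (2.91%). Over matched mesenchyme, 356 of 11194 were higher (3.18%) and 239 were lower (2.14%). In both comparisons together 247 genes were higher (2.21%) and 196 were lower (1.75%). The 11 genes of the rule and of the reference are left out of these counts, and the 2 comparisons share cells. Unless another group is named, ratios and counts of called genes below are to matched mesenchyme. It holds the Hox13-positive cells that the rule kept out of the members. Low ratios of genes expressed with Hoxa13 or Hoxd13 are therefore not independent of the choice. Counts in the lists below stand beside the shares of matched mesenchyme over all genes, 3.18% higher and 2.14% lower.

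The largest ratio among genes with at least 100 UMIs in the pair belonged to Pkdcc, a tyrosine kinase of the secretory pathway needed for limb bone growth in the mouse. It had 143 UMIs in 60 of the 134 proximal cells, up to 15 in a cell, and 58 UMIs in 41 of the 859 matched cells. Its level was 116 CPM in proximal cells, against 6.88 in matched mesenchyme, a ratio of 16.8 (95% interval 12.3 to 23.3). Irx3 had 230 UMIs in 66 proximal cells, with none in 68 cells and up to 21 in a cell, and 98 UMIs in 48 matched cells. Its level was 186 CPM against 11.6, a ratio of 16.0 (12.6 to 20.5). Irx5 had 150 UMIs in 51 proximal cells, up to 10 in a cell, and 76 UMIs in 43 matched cells, a ratio of 13.5 (10.2 to 18). Each of the 3 was thus common in proximal cells and rare, though not absent, in the rest of the mesenchyme.

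After thinning each cell to 4000 UMIs (126 of the 134 proximal cells were deep enough), Irx3 was detected in 36.5% of proximal cells (unthinned 49.3%) and 3.11% of matched cells. In endothelial cells of the same library (at least 2 UMIs of Cdh5 or Pecam1), taken as a guide to what free RNA can give, it was detected in 3.89%. Irx5 was detected in 26.2% of thinned proximal cells, 2.98% of matched cells and 0.973% of endothelial cells. Pkdcc was detected in 27.0%, 2.98% and 1.22% in the same order. The shares in proximal cells were thus above those in both other groups. Pooling hides differences within matched mesenchyme, where a cell held up to 6 UMIs of Irx3, and where Irx3 was detected, unthinned, in 12.9% of the cells with 1 Meis UMI and 24.4% of those with 2 that lacked Hoxa13 and Hoxd13, against 8.41% of endothelial cells.

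Irx3 lies on chromosome 8 at 91798525 to 91802067 on the minus strand, Irx5 on the same chromosome at 92357625 to 92376286 on the plus strand, and Pkdcc on chromosome 17 at 83215292 to 83225070 on the plus strand (GRCm38, GENCODE). The promoter windows of Irx3 and Pkdcc, from 250 bases before to 50 bases after the RefSeq start, are shown because, among called genes with at least 100 UMIs in the pair, these had the highest ratios in cells chosen for MEIS transcripts. The letters TGACAG, the core of the sequence that MEIS proteins bind, were searched on both strands, and capitals mark a match, here the other strand's CTGTCA. The sequences are RefSeq's, of build GRCm38.p6, read 5′ to 3′ on the gene's strand.
Irx3, chr8:91801605-91801904, minus strand: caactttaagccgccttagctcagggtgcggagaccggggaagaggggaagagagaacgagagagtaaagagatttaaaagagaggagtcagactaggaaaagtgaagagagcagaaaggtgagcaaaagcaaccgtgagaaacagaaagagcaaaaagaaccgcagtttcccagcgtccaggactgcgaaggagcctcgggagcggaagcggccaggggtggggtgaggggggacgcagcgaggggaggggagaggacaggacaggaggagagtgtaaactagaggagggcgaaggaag
Pkdcc, chr17:83215033-83215332, plus strand: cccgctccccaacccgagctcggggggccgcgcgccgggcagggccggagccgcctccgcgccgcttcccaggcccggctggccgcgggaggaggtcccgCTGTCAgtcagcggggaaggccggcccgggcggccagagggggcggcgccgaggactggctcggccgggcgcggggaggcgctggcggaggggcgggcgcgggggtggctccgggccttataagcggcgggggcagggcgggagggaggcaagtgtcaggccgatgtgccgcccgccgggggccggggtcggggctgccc
The Pkdcc window held 1 match, at position 101, and the Irx3 window held 0. Of all 32851 promoter windows, 6300 (19.2%) held the letters. Among the 12 genes of highest ratio, 7 had 11 windows in all, of which 3 (27.3%) held a match. Those 3 windows belonged to 2 of the 7 genes. Among the 12 of lowest ratio, 6 had 8 windows in all, and 0 held a match. A match is a description of the sequence and does not show binding.

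The other 9 genes of highest ratio, in falling order, were Nr2f1, Ebf2, Osr1, Zdbf2, Cdo1, Meox1, Bnc2, Limch1 and Lhfp. Nr2f1, which encodes an orphan nuclear receptor, had 67 UMIs in 42 proximal cells and a ratio of 9.53 (6.48 to 14.1). Ebf2, an early B-cell factor family member of mesenchyme, had a ratio of 5.81 (4.09 to 8.25), and Osr1, an odd-skipped zinc finger gene of irregular connective tissue, a ratio of 4.88 (3.68 to 6.45). Cdo1, which encodes cysteine dioxygenase, was the most abundant of the 9, with 318 CPM in proximal cells and 68.4 in matched mesenchyme. It was detected in 79 of the 134 proximal cells and 256 of the 859 matched cells. Limch1 was detected in 22.2% of thinned proximal cells and 28.7% of thinned endothelial cells, against 10.99% (unthinned) of the Prrx1 cells without Meis, Hoxa13 or Hoxd13 UMIs. Endothelial cells therefore give no free RNA level for Limch1. Zdbf2 was detected in 16.7% of thinned proximal cells and 6.57% of thinned endothelial cells. The remaining genes of the 9 were each at 7.3% or lower in thinned endothelial cells.

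The 12 genes of lowest ratio included Ccdc109b, Sall3, Pmaip1, Sall1, Actc1, Evx1, Gldc, Pcsk6, Zic2, Jag1 and Pknox2. Pmaip1, which encodes the BH3-only protein NOXA, had 6 UMIs in the proximal cells and 2077 in matched mesenchyme, a 50.7-fold lower level (23.2 to 138). That was 4.86 CPM in proximal cells against 246 in matched mesenchyme, which holds the Hox13-positive cells barred from the members. In the 355 matched cells without Meis, Hoxa13 or Hoxd13 UMIs, Pmaip1 had 137 CPM. Sall3, a spalt zinc finger gene of the distal bud, had 0 UMIs in the proximal cells, which with a floor of 3 UMIs made it at least 10.3-fold lower. Ccdc109b, which encodes a subunit of the mitochondrial calcium channel, was likewise at 0 and at least 8.64-fold lower. The other 9 had 1 to 3 UMIs each in the proximal cells. The ratio was 0.0294 for Sall1 (0.000742 to 0.166) and 0.0601 for the zinc finger gene Zic2 (0.0123 to 0.177). For Evx1, a homeobox gene of the distal bud, it was 0.034 (0.000856 to 0.191), and for Jag1, a Notch ligand, 0.0604 (0.00152 to 0.344). For Actc1, cardiac actin, a single cell held 95% of the UMIs of matched mesenchyme, so its low ratio rests on that cell. It was not called with at least 1000 genes and at most 5% mitochondrial UMIs (ratio 0.768) or in cells with a Y-linked UMI (0.864). In the others named, no matched cell held more than 4% of the UMIs.

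**Figure D1:**
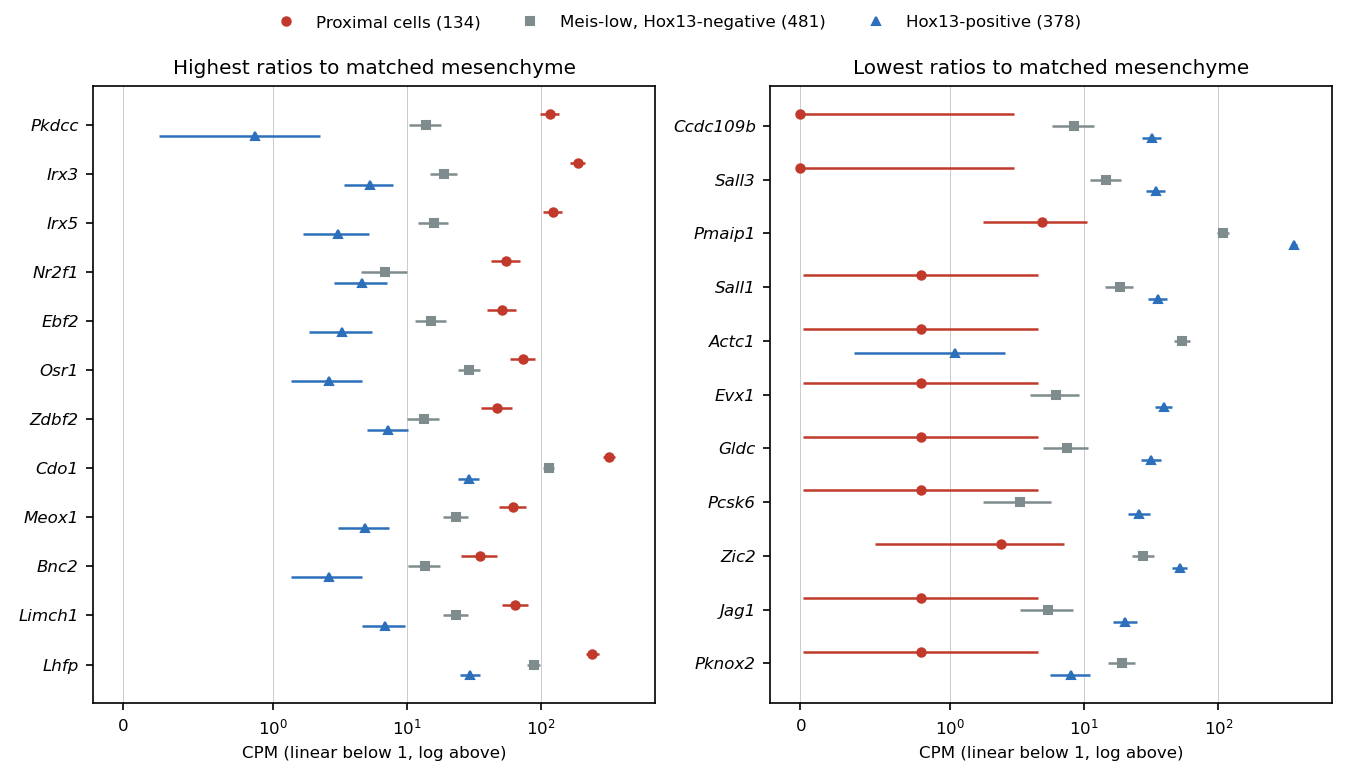
CPM with exact Poisson 95% intervals for the 12 genes of highest ratio to matched mesenchyme (left) and for those named above among the 12 of lowest ratio (right), in 134 proximal cells (red circles), 481 Meis-low cells (grey squares) and 378 Hox13-positive cells (blue triangles). Proximal cells have the highest level of each gene on the left, with Meis-low cells between them and the Hox13-positive cells, and the lowest level of each gene on the right.

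**Figure D2:**
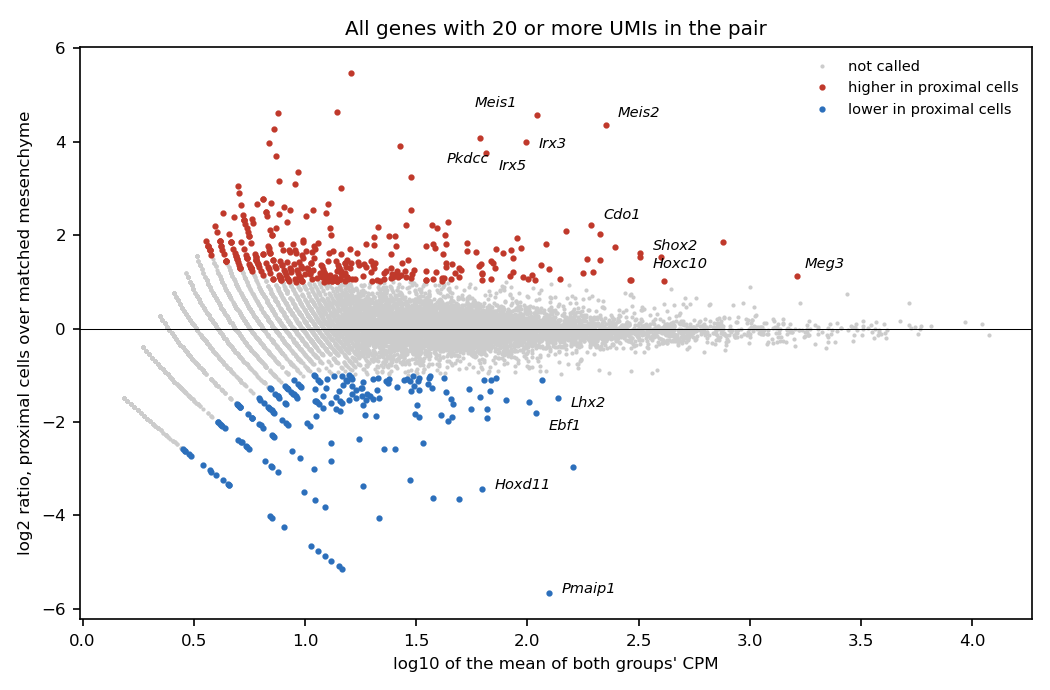
Log2 ratio of proximal cells over matched mesenchyme against the log10 mean level for every gene with at least 20 UMIs in the pair and at least 1 UMI in each group; red genes were called higher and blue genes lower, and Meis1 and Meis2 belong to the rule. Called genes lie above and below 0 at low and high levels, with Pkdcc at a ratio of 16.8 and Pmaip1 50.7-fold lower, and low genes scatter most.

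Most of the listed factors known for the proximal limb were higher. Of the 12 listed genes, Meis1 and Meis2 belong to the rule and Irx1 and Irx2 had under 20 UMIs in the pair. Of the 8 others, 7 were higher and 0 lower, with a median log2 ratio of 1.79 against 0.01 over all genes tested. Pbx3, a homeobox gene whose protein pairs with MEIS proteins on DNA, had a ratio of 2.26 (1.80 to 2.81), while Pbx2 stood at 105 CPM in proximal cells and 98.6 in matched mesenchyme, with a ratio of 1.07 (0.880 to 1.29). Shox2, a homeobox gene needed for the proximal limb bone in the mouse, had 478 CPM against 165, a ratio of 2.91 (2.64 to 3.20). Against Meis-low cells alone 5 of the 8 were higher, where 1.5% of all genes were, and Shox2 (1.57) and Pbx3 (1.88) were not called. Meis3, the family member that the rule did not use, had 21 UMIs in 15 proximal cells and 14 in matched mesenchyme, a ratio of 10.2 (4.97 to 21.8). Zbtb16, the zinc finger gene PLZF that acts in proximal hindlimb patterning in the mouse, had a ratio of 3.58 (2.03 to 6.13).

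For most of the called genes the level in Meis-low cells lay between those of the other 2 groups. Of the 247 higher genes, 214 (86.6%) fell in the order proximal, Meis-low, Hox13-positive, and in 33 (13.4%) Meis-low cells were lowest. Of the 196 lower genes, 143 (73.0%) had the opposite order and 51 (26.0%) were highest in Meis-low cells. Matched mesenchyme is the sum of Meis-low and Hox13-positive cells, so part of this order is fixed by the choice. Of the 247 higher genes 109 (44.1%) were also called against Meis-low cells alone, and of the 196 lower genes 123 (62.8%). Median depth was 7526 UMIs in Meis-low cells and 11682 in Hox13-positive cells. A cell whose Hox13 or Meis transcripts were missed can fall among the Meis-low cells, and the part of this in the order was not tested. Set against Hox13-positive cells, 565 of 10225 genes were higher in proximal cells (5.53%) and 297 were lower (2.9%). Against Meis-low cells, 154 of 10253 were higher (1.5%) and 202 were lower (1.97%). Irx3 had 186, 18.9 and 5.30 CPM in proximal, Meis-low and Hox13-positive cells. Shox2 had 478, 305 and 43.1, so that Hox13-positive cells stood apart from the other groups. Hoxa11, a gene of the lower leg segment, had 58.3, 136 and 50.6, and Osr2, an odd-skipped gene of joints and connective tissue, 67.2, 189 and 23.0. Both were thus highest in Meis-low cells.

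The limit of 3 Meis UMIs fell within a series of rising levels for Irx3 and Hoxc10. Among Prrx1 cells that lack Hoxa13 and Hoxd13 and meet the exclusions, 355 had 0 Meis UMIs, 85 had 1, 41 had 2, 32 had 3, 32 had 4 or 5, and 44 had 6 or more. Just outside the limit, at 2 Meis UMIs, Irx3 had 58.4 CPM, and just inside, at 3, it had 92.8. Over the 6 steps from 0 upward Irx3 had 9.28, 35.6, 58.4, 92.8, 142 and 221 CPM. Hoxc10 had 208, 340, 388, 442, 507 and 563. Shox2 had 238 at 0, between 438 and 628 in the other 5 steps, and 462 in the highest, with no order among those 5. Hoxa11 had 137, 126, 149, 111, 71.1 and 24.8, and Pmaip1 fell to 0 at 3 UMIs and 6.76 at 6 or more, against 137 at 0. Median depth was 7309 UMIs a cell in the lowest step, 6639.5 at 3 UMIs and 9415 in the highest, and a deeper cell has more chance to pass a limit on UMIs. The part of depth in these steps was not tested. The steps use the Meis counts that chose the cells, and a cell whose Meis transcripts were missed falls in a lower step. The share of cells with an Irx3 UMI also rose, from 4.23% at 0 Meis UMIs to 65.9% at 6 or more. Whether the level changes gradually from cell to cell or the steps mix different cells was not tested.

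**Figure D3:**
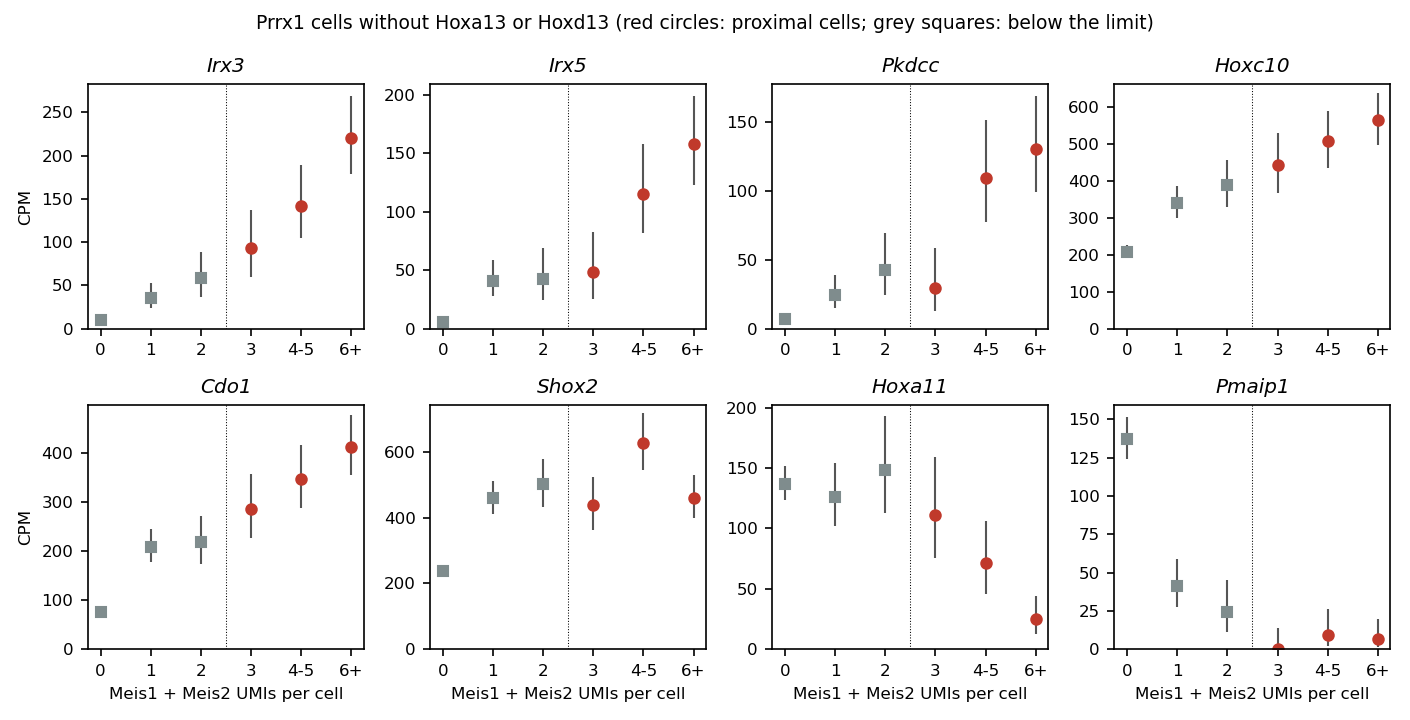
CPM (exact Poisson 95% intervals) of 8 genes in Prrx1 cells without Hoxa13 or Hoxd13, by the cell's summed Meis1 and Meis2 UMIs; red circles are proximal cells, grey squares are cells below the limit of 3, and the dotted line is the limit. Irx3, Hoxc10 and Cdo1 climb over the steps and Pmaip1 declines. The intervals of Irx3 at 2 UMIs (58.4) and at 3 (92.8) overlap. The steps use the Meis counts that chose the cells.

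Hox genes split by cluster. Against matched mesenchyme the Hoxc genes of the middle of the cluster were higher in proximal cells and the 5′ Hoxd genes were lower. The Hoxa genes of groups 9 and 10 were close to equal. Matched mesenchyme holds the Hox13-positive cells that the rule kept out of the members. The low ratios of the 5′ Hoxd genes, neighbours of Hoxd13, are therefore not independent of the choice. Hoxc10 was the most abundant of the higher ones, with 484 CPM in proximal cells and 159 in matched mesenchyme, a ratio of 3.05 (2.76 to 3.36), and was detected in 117 of 134 proximal cells. Hoxc9, Hoxc8 and Hoxc6 had ratios of 2.61 (2.07 to 3.25), 3.04 (2.3 to 4.0) and 3.42 (2.51 to 4.61). Hoxd10 fell to 10.5 CPM in proximal cells, against 57.5, and was 5.46-fold lower (3.16 to 10.3). Hoxd11 was 10.9-fold lower (6.33 to 20.5) and Hoxd12 12.5-fold lower (6.56 to 27.5). Hoxa9 had a ratio of 1.09 (0.932 to 1.27) and Hoxa10, at 508 and 518 CPM, 0.980 (0.900 to 1.07). Against Meis-low cells Hoxc10, Hoxc9 and Hoxc8 were not called, with ratios of 1.94, 1.70 and 1.83, while Hoxc6 was higher (2.44, 1.75 to 3.39). Over matched mesenchyme 3.18% of all genes were higher and 2.14% lower. Among Hox groups 3 to 8, 4 of 11 genes were higher and 0 lower. In groups 9 and 10, 3 of 7 were higher and 1 lower. In groups 11 to 13, 0 of 4 were higher and 2 lower. Against Meis-low cells 4 of 10 were higher and 0 lower in groups 3 to 8. In groups 9 and 10, 1 of 7 was higher and 2 lower there (Hoxd9 and Hoxd10). In groups 11 to 13, 0 of 4 were higher and 3 lower there (Hoxa11, Hoxd11 and Hoxd12). The shares over all genes against Meis-low cells were 1.5% higher and 1.97% lower. Hoxb4, Hoxb6 and Hoxb9 were also called higher, with ratios of 8.93, 24.6 and 3.46. Hoxb4 and Hoxb6 were detected in 3.97% and 3.17% of thinned proximal cells and in 13.4% and 5.35% of thinned endothelial cells, so that more endothelial than proximal cells held them. Hoxb9 was detected in 11.9% of thinned proximal cells and 9.98% of thinned endothelial cells.

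**Figure D4:**
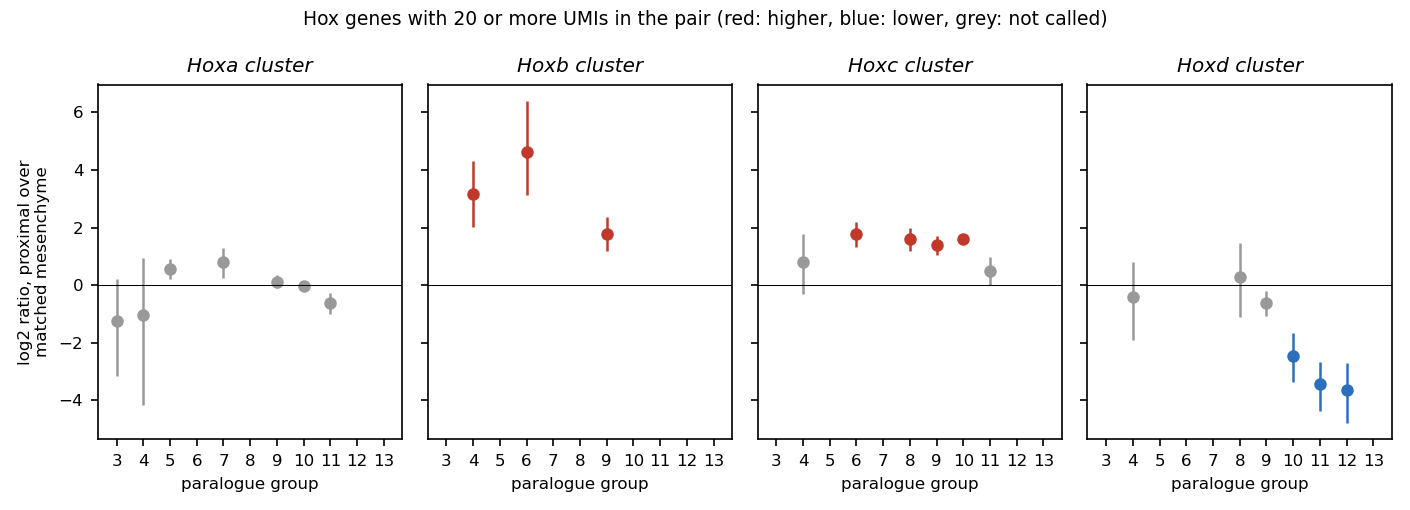
Log2 ratio of proximal cells over matched mesenchyme, with exact 95% intervals, for Hox genes with at least 20 UMIs in the pair, by cluster and paralogue group; Hoxa13 and Hoxd13 belong to the rule and are not drawn. Hoxc6 to Hoxc10 lie above 0 (ratios 2.61 to 3.42), Hoxd10 to Hoxd12 below it, and Hoxa9 and Hoxa10 close to it. Matched mesenchyme holds the Hox13-positive cells that the rule kept out of the members.

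Genes that set hindlimb identity were detected in proximal cells at or above their level in matched mesenchyme. Pitx1, the homeobox gene that specifies the hindlimb, had 534 CPM in proximal cells and 375 in matched mesenchyme, a ratio of 1.42 (1.31 to 1.55). Tbx4, its T-box target, had a ratio of 1.21 (0.720 to 1.93), and the forelimb gene Tbx5 had 0 UMIs. Of the 4 identity genes with enough UMIs, 2 were higher, among them Isl1, where 3.18% of all genes were higher. Isl1, a LIM homeobox gene that acts at the start of the hindlimb, had 73 UMIs in 35 proximal cells and a ratio of 3.32 (2.48 to 4.43).

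Factors of distal outgrowth were low against matched mesenchyme, which holds the Hox13-positive cells that the rule kept out of the members. Of 12 listed genes with enough UMIs, 0 were higher and 8 lower, with a median log2 ratio of -2.70. Over all genes 3.18% were higher and 2.14% lower. Sall1, Sall3, Sall4, Lhx2, Sp9, Tfap2a, Tfap2b and Tfap2c were the 8. Against Meis-low cells 0 of 10 were higher and 4 lower (Sall1, Sall3, Sall4 and Tfap2a), where 1.97% of all genes were lower. The median log2 ratio there was -1.11, and Lhx2 was not called. Lhx2, a LIM homeobox gene of the progress zone, was the most abundant, with 72.1 CPM in proximal cells and 203 in matched mesenchyme, 2.81-fold lower (2.27 to 3.52). Msx1, a homeobox gene of the distal and marginal mesenchyme, had 159 against 308 CPM, and its ratio of 0.517 (0.445 to 0.598) fell short of 2-fold. Lhx9 (0.509) and Msx2 (0.576) did so as well, and Dlx5 had a ratio of 1.25 (0.804 to 1.88).

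Genes of the retinoic acid pathway moved in both directions. Rdh10, which makes retinaldehyde, had a ratio of 2.58 (1.65 to 3.95), and Rarb, a receptor gene that is itself a retinoic acid target, 3.29 (1.56 to 6.60), from 40 UMIs in the pair. Rarb was not called with a limit of 5 Meis UMIs (ratio 2.01), where the rule was applied to cells thinned to 5000 UMIs (2.31) or in cells with a Y-linked UMI (2.59). Cyp26b1, the enzyme that clears retinoic acid from the distal bud, had 28 UMIs in 20 proximal cells and 589 in matched mesenchyme, and was 3.08-fold lower (2.11 to 4.68). Dhrs3, which turns retinaldehyde back to retinol, was 2.90-fold lower (1.54 to 6.14), and Aldh1a2, which makes retinoic acid, was 2.23-fold lower (1.38 to 3.82). Aldh1a2 was not called against the other Prrx1 cells (ratio 0.601). The binding proteins Crabp1 and Crabp2 had ratios of 1.03 and 1.14. Of the 14 retinoic acid genes with enough UMIs, 3 were higher and 3 lower, with a median log2 ratio of 0.20. The shares over all genes were 3.18% and 2.14%.

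Targets and ligands of the fibroblast growth factor pathway were lower or not called, 3 of 13 being lower and 0 higher. Among all genes 2.14% were lower and 3.18% higher. Fgf10, the mesenchymal ligand that signals to the ridge, had 3 UMIs in proximal cells and a ratio of 0.124 (0.0254 to 0.369). The feedback inhibitors Spry2 and Spry4 had 2 UMIs each and ratios of 0.185 (0.0219 to 0.691) and 0.236 (0.0279 to 0.890). Dusp6, another feedback inhibitor, had 84.2 CPM in proximal cells and 158 in matched mesenchyme, with a ratio of 0.533 (0.432 to 0.651), short of 2-fold. The ETS factor gene Etv4 had a ratio of 0.658 (0.492 to 0.864).

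Genes of the hedgehog pathway and of the posterior bud were also low, with 6 of 17 lower and 2 higher. Over all genes 2.14% were lower and 3.18% higher. Shh, the ligand of the posterior margin, had 0 UMIs in proximal cells and 35 in matched mesenchyme, at least 1.71-fold lower. Gli1, its transcriptional target, had 8 UMIs and was 3.42-fold lower (1.70 to 8.04), and Grem1, a BMP antagonist, had 1 UMI and a ratio of 0.0976 (0.00244 to 0.562). Pax9, a paired-box gene of the anterior distal margin, was 7.10-fold lower (2.73 to 26.3), with 3 of its 4 proximal UMIs in 1 cell. The 2 higher genes were Alx4, an anterior homeobox gene, with 15 UMIs in 14 proximal cells and a ratio of 6.40 (2.95 to 13.8), and Tbx3, a T-box gene of the bud's margins, with a ratio of 2.66 (2.01 to 3.47). Hand2, the posterior factor upstream of Shh, was detected in 42 of the 134 proximal cells, with a ratio of 0.697 (0.562 to 0.856). Gli3 had a ratio of 0.972 (0.744 to 1.25). Anterior and posterior genes were thus both present among the proximal cells.

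In the WNT pathway 4 of 23 genes were higher and 2 lower, where 3.18% and 2.14% of all genes were. Dkk2, an antagonist, had 38.1 CPM against 9.60, a ratio of 3.96 (2.71 to 5.75), and Sfrp1, another antagonist, 130 against 40.2, a ratio of 3.22 (2.65 to 3.90). Ror1, a WNT5A receptor, had a ratio of 3.98 (1.91 to 8.02) and Wnt4 a ratio of 2.03 (1.2 to 3.31). Wnt5a, the ligand of distal elongation, was 3.77-fold lower (2.68 to 5.48), and Tcf7, a transcriptional effector, was 3.62-fold lower (1.93 to 7.64). Against Meis-low cells 1 of 23 was higher (Dkk2) and 2 lower (Wnt5a and Tcf7), where 1.5% and 1.97% of all genes were. In the BMP and TGF-beta pathway 2 of 20 were higher and 1 lower. Against Meis-low cells 1 of 20 was higher (Tgfb2) and 1 lower (Bmp2), beside the same shares of 1.5% and 1.97%. Tgfb2 had 142 CPM in proximal cells and 37.1 in matched mesenchyme, a ratio of 3.82 (3.16 to 4.61), the receptor gene Bmpr1b a ratio of 2.64 (1.24 to 5.29), and the ligand gene Bmp2 was 2.73-fold lower (1.53 to 5.37).

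Regulators of connective tissue and tendon, and the matrix genes of fibrous tissue, were often higher in proximal cells. Of 27 regulators with enough UMIs, 10 were higher and 2 lower, with a median log2 ratio of 0.67. Among all genes 3.18% were higher and 2.14% lower. Besides Nr2f1, Ebf2, Osr1 and Meox1 the higher ones included Foxp2, Foxc1, Tbx18, Scx and Ebf3. Tbx18, a T-box gene of proximal mesenchyme, was the most abundant, with 274 CPM in proximal cells, detected in 95 of 134, and 98.0 in matched mesenchyme, a ratio of 2.80 (2.46 to 3.18). Scx, the tendon progenitor factor, had a ratio of 2.47 (2.0 to 3.03). The family of early B-cell factors was divided: Ebf1 had 48.6 CPM in proximal cells against 170, and was 3.50-fold lower (2.70 to 4.61), while Ebf2 and Ebf3 (ratio 2.15) were higher. Mkx, a tendon homeobox gene, had 6 UMIs and was 2.56-fold lower (1.14 to 7.14). Only 1 regulator was lower with a limit of 5 Meis UMIs, with Prrx1 required, with means over cells, or in cells with a Y-linked UMI. Against Meis-low cells 7 of 24 regulators were higher and 3 lower (Ebf1, Osr2 and Mkx), where 1.5% and 1.97% of all genes were. Tbx18, Scx and Ebf3 were not among the 7.

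Of 18 fibrous matrix genes with enough UMIs, 7 were higher and 0 lower, with a median log2 ratio of 0.66. The share of all genes that were higher was 3.18%. Col3a1, a fibrillar collagen of loose connective tissue, had 591 CPM in proximal cells and 204 in matched mesenchyme, a ratio of 2.90 (2.66 to 3.16). It had a median of 5 UMIs in a proximal cell and 1 in a matched cell. Col1a2 (2.06), Col1a1 (2.15), Col6a1 (2.45), Col6a3 (3.0), Fbn1 (2.13) and the proteoglycan gene Dcn (2.22) were the others. Against Hox13-positive cells 12 of 17 were higher, where 5.53% of all genes were. Against Meis-low cells 1 of 18 was higher (Col6a3), where 1.5% of all genes were, so the counts differed mainly from the Hox13-positive cells. With a limit of 5 Meis UMIs 4 were higher and 1 lower, and likewise 4 and 1 where the rule was applied to cells thinned to 5000 UMIs. With Prrx1 required, or with at least 1000 genes and at most 5% mitochondrial UMIs, the counts stayed at 7 and 0. Chondrogenic genes were mostly not called, with 2 of 14 higher (Matn4 and Runx2, the transcription factor of bone and hypertrophic cartilage) and 0 lower. Of the 20 Matn4 UMIs 45% were in 1 cell. Both groups lacked cells with Sox9 and Col2a1 at the limits of the rule, so part of this likeness is fixed by the choice. Against the other Prrx1 cells 1 of 16 was higher (Runx2) and 2 lower (Sox6 and Hapln1), where 2.72% and 2.91% of all genes were. Against Meis-low cells 1 of 12 was higher (Runx2) and 2 lower (Cytl1 and Sox6), where 1.5% and 1.97% were.

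Guidance and migration signals were higher in 7 of 22 and lower in 0, with a median log2 ratio of 0.10. Among all genes 3.18% were higher. Cxcl12, the chemokine that attracts muscle precursors and endothelium through CXCR4, had 342 CPM in proximal cells, detected in 103 of 134, against 84.5 in matched mesenchyme, a ratio of 4.04 (3.58 to 4.57). Efnb2, an ephrin, had a ratio of 3.98 (3.01 to 5.25), and was detected in 26.2% of thinned proximal cells and 23.8% of thinned endothelial cells. The guidance ligand genes Slit2, Ntn1 and Sema3a had ratios of 3.09 (1.83 to 5.10), 3.26 (1.84 to 5.60) and 2.73 (1.80 to 4.06). Epha7 and its ligand Efna5 had ratios of 2.64 (2.13 to 3.25) and 2.31 (1.91 to 2.79). Against Meis-low cells 3 of 22 were higher (Slit2, Cxcl12 and Efnb2) and 0 lower, where 1.5% of all genes were higher. Ntn1, Sema3a, Epha7 and Efna5 were not among the 3.

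Of 13 imprinted growth genes, with a median log2 ratio of 0.46, 2 were higher and 0 lower: the noncoding RNA Meg3, with 2229 CPM in proximal cells and 1022 in matched mesenchyme (ratio 2.18, 2.09 to 2.28), and the zinc finger gene Peg3 (ratio 2.03, 1.86 to 2.21). H19 and Igf2 had ratios of 1.15 and 1.39. Against Meis-low cells 0 of the 13 were called higher or lower, where 1.5% and 1.97% of all genes were. The share of all genes that were higher over matched mesenchyme was 3.18%. None of the 18 S-phase genes, the 18 G2/M genes or the 10 D cyclins and cell cycle inhibitors was called. The S-phase genes summed to 3547 CPM in proximal cells, 3356 in Meis-low cells and 3950 in Hox13-positive cells, and the G2/M genes to 3499, 3407 and 3921. Of 15 immediate early and heat shock genes 2 were higher (Egr1 and Zfp36, with ratios of 2.07 and 2.3) and 0 lower, and Fos had a ratio of 1.27. The mitochondrially encoded genes held a median of 2.60% of a proximal cell's UMIs and 2.54% of a matched cell's.

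**Figure D5:**
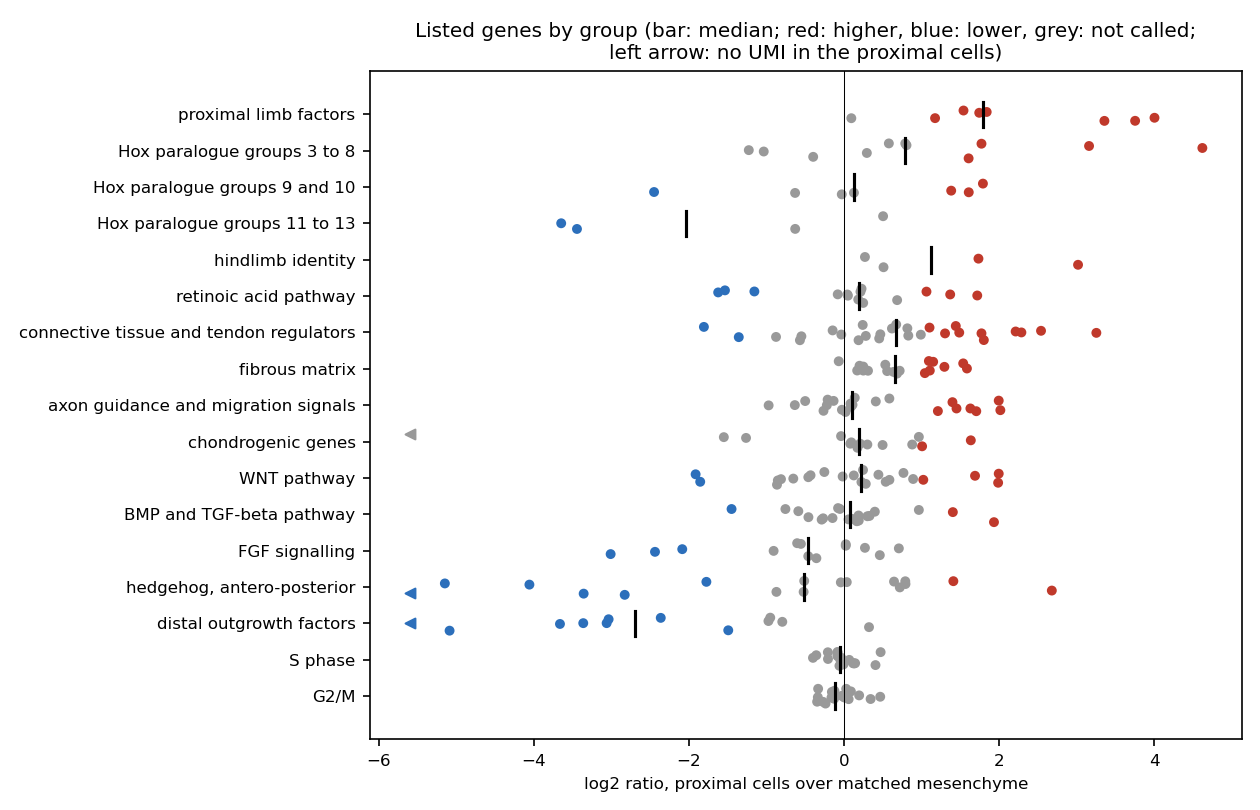
Log2 ratio of proximal cells over matched mesenchyme for each listed gene with at least 20 UMIs in the pair (points: red higher, blue lower, grey not called; arrows: no UMI in proximal cells), with the median of each group as a bar. Proximal limb factors have the highest median (1.79) and distal outgrowth factors the lowest (-2.70), and the cell cycle groups lie near 0.

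The proximal cells were not uniform. They were split by raw UMIs of genes that pattern the limb, each split leaving out the genes that made it, and the same call rule was applied within the 134 cells. With Irx3 or Irx5 (73 cells) against neither (61 cells), 74 of 7011 genes were higher (1.06%) and 122 lower (1.74%). Zfhx3, a zinc finger homeobox gene, had 367 CPM in the Irx cells and 133 in the others, a ratio of 2.76 (2.10 to 3.69), and Igf1, Lhx9 and Cdo1 had ratios of 2.39, 2.38 and 2.29. The WNT modulator gene Sfrp2 was 2.59-fold lower in the Irx cells (2.12 to 3.17). Hoxa11 and Hoxd9 were lower as well, with ratios of 0.408 (0.245 to 0.670) and 0.330 (0.172 to 0.610), and Osr2 had a ratio of 0.261. Median depth was 9692 UMIs in the Irx cells and 7489 in the others.

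A second axis was set by Hoxa11 and Hoxd11, with at least 2 UMIs in 18 proximal cells and 0 in 91. Here 98 of 6429 genes were higher (1.52%) and 127 lower (1.98%). Pkdcc was 3.04-fold lower in the 18 cells (1.54 to 6.84), and Irx3 and Irx5 had ratios of 0.354 and 0.376. Col9a1, a cartilage collagen gene, was 4.90-fold lower (2.68 to 9.98). Dlk1, an imprinted membrane protein gene, had a ratio of 2.54 (1.90 to 3.38), and the posterior factor Hand2 one of 3.34 (2.11 to 5.25). Between the 58 cells with at least 6 Meis UMIs and the 34 with 3, 116 of 5890 genes were higher (1.97%) and 75 lower (1.27%). This split used the Meis counts that chose the cells. Median depth was 9184.5 UMIs in the 58 cells and 6639.5 in the 34, and its part was not tested. Pkdcc had 166 CPM in the first and 28.5 in the second, a ratio of 5.80 (2.83 to 13.8), Irx5 a ratio of 3.72 (2.08 to 7.24) and Irx3 one of 2.78 (1.82 to 4.40). Shox2 had a ratio of 0.953 (0.762 to 1.2).

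Dorsal and posterior markers gave smaller groups. Lmx1b, the dorsal LIM homeobox gene, was detected in 17 of the 134 cells, with 78 of 7013 genes higher (1.11%) and 106 lower (1.51%). The chemokine gene Cxcl14 had 471 CPM in the 17 cells and 99.1 in the other 117, a ratio of 4.76 (3.48 to 6.46). Irx3 was 3.16-fold lower in them (1.68 to 6.67). Hand2 without Alx4 (38 cells) against Alx4 without Hand2 (10 cells) gave 83 of 4306 genes higher (1.93%) and 64 lower (1.49%). Irx5 had a ratio of 0.484 there and Irx3 one of 0.830 (0.503 to 1.43).

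The same rule found few cells in the later libraries, 15 at E13.5 (0.533% of kept cells), 17 at E15.5 (0.654%) and 14 at E18.5 (0.735%), all below the 5.08% at E11.5. Prrx1 was lower in them than in the other Prrx1 cells of their library, with ratios of 0.348, 0.496 and 0.459 in stage order. That reference was required to hold Prrx1 and the selected cells were not. At E13.5, 431 of 11367 genes were higher (3.79%) and 281 lower (2.47%), at E15.5 432 (4.03%) and 495 (4.62%) of 10723, and at E18.5 188 (1.99%) and 270 (2.85%) of 9464. Krt14 and Krt15, keratin genes of the epidermis, were among the genes of highest ratio at E13.5, where Krt14 had 162 UMIs in 8 of the 15 cells, and at E18.5, where it had 199 UMIs in 5 of the 14. The cells found at E13.5 and E18.5 thus held epithelial transcripts, and those of the later stages are not described further as proximal mesenchyme. Of the 202 genes higher at E11.5 that could be tested at E13.5, 13 were higher there and 2 lower. At E15.5 it was 21 and 18 of 190, and at E18.5 11 and 10 of 166. Of the 164 genes lower at E11.5 that could be tested at E13.5, 10 were lower there and 17 higher, at E15.5 21 and 18 of 144, and at E18.5 6 and 6 of 104. Hoxc10 was among those higher at E13.5 (ratio 4.95, 2.97 to 7.82) and E15.5 (3.98, 2.86 to 5.44). Irx5 was higher at E13.5 (6.01, 3.11 to 10.7), where Irx3 had 0 UMIs.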

How the data were processed

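The authors deposited raw UMI counts per gene and cell for 4 libraries, each the pooled hindlimbs of 1 litter, captured with the 10x Genomics Chromium 3' system per the labels' protocols. Per the submitters' processing notes Cell Ranger (version not stated) and Seurat 2.3.4 were used, with build mm10. The deposited count matrices hold 33456 gene entries. Whether counting used strand is not stated.

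Cells with under 200 genes or over 10% mitochondrially encoded UMIs were removed, which took 43 of 2683 E11.5 barcodes (27149328 UMIs in all). No doublet caller was run. UMIs were summed over the cells of a group and divided by the group's total to give CPM (counts per 1000000 UMIs). Ratios carry exact conditional binomial 95% intervals, and levels exact Poisson ones. The method was tested on simulated counts. Detection shares came from cells thinned to 4000 UMIs. Genes were named by rule: the 12 highest and 12 lowest ratios among called genes with at least 100 UMIs in the pair (6 and 6 for splits and later stages), and called members of 32 lists; Gm, Rik and mitochondrial names were left out of the ranking, and some genes are not reported here. The members, lists and splits were chosen with earlier results of these data known. Chromosome positions are from GENCODE (GRCm38), matched by gene ID for 32655 entries. Alternatives changed the cell rule, the depth, the call limits and the averaging. Python 3.11.15, numpy 2.4.6, pandas 2.3.3, scipy 1.17.1 and matplotlib 3.10.9 were used.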

Additional observations from a re-analysis of the deposited data

Results flagged for a closer look

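Named genes whose ratio in a later library ran opposite to E11.5 are given here; the difference was not tested, since every stage has 1 library. Actc1, lower in proximal cells at E11.5, had a ratio of 3.79 at E15.5 (2.91 to 4.87) and 4.88 at E18.5 (3.28 to 7.07) in the cells found by the same rule, and at E11.5 a single matched cell held 95% of its UMIs. Limch1, higher at E11.5, had a ratio of 0.326 at E15.5 (0.0667 to 0.965), from 3 UMIs. Ebf2, higher at E11.5, had 0 UMIs in the 14 cells found at E18.5, a ratio of 0, against 160 in the other Prrx1 cells.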

How the results depend on the processing

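The share of proximal cells moved with the Meis limit, to 7.16% with at least 2 UMIs and 2.61% with at least 5, and was 3.81% with the rule on cells thinned to 5000 UMIs and 4.09% with Prrx1 required. Against the other Prrx1 cells, a ratio of at least 1.5 gave 625 higher and 587 lower genes, and at least 100 UMIs in the pair gave 154 higher. Against matched mesenchyme these settings gave 678 and 441, and 135 and 150, and no minimum of UMIs gave 540 higher. Every other count of higher or lower genes under the settings tried stayed within 1.5 times. Of the 37 named genes called against matched mesenchyme, between 35 and 37 stayed called in the same direction under each of the 15 settings and 0 reversed. Some sizes left their main intervals. With the rule on cells thinned to 5000 UMIs the ratio was 10.5 for Pkdcc, 2.71 for Osr1, 3.02 for Cdo1 and 2.75 for Bnc2. Irx3 (13.4) and Irx5 (13.1) stayed within theirs there. With a limit of 5 Meis UMIs Osr1 had a ratio of 2.67. Without the 2 cells that carried markers of another cell type, an alternative added after seeing the data, 354 genes were higher and 237 lower. The thinned share of proximal cells with Shox2 was 53.7% at 2500 UMIs. At 2 Meis UMIs the later libraries gave 0.994%, 1.46% and 2.31% of cells in stage order. Limiting the comparison to cells with Xist could give no value, because 0 proximal cells had an Xist UMI. No paired analysis was possible because each stage is 1 library. At this depth the genes with 0 to 3 UMIs in 134 cells have ratios known only within wide intervals, and spread between embryos or litters cannot be measured.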

Other observations

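Some genes outside the naming rule were chosen after their values were seen. Itm2a, which encodes a membrane protein, was among the most abundant of the higher genes, with 1192 CPM in proximal cells and 329 in matched mesenchyme, a median of 7 UMIs in a proximal cell and 1 in a matched cell. March11 had 39 UMIs in 20 proximal cells and 6 in the 859 matched cells, a ratio of 44.4 (18.7 to 128). Fap, a protease gene of fibroblasts, had 17 UMIs in 15 proximal cells and 6 in matched mesenchyme, a ratio of 19.4 (7.28 to 59.9). Pax1, a paired-box gene of sclerotome and girdle, had 62 UMIs in 10 proximal cells and 28 in matched mesenchyme, a ratio of 15.1 (9.53 to 24.5). Hoxb2 had 33 UMIs in 21 proximal cells and 9 in matched mesenchyme. Snrpn had 51.0 CPM in proximal cells and 152 in matched mesenchyme, a ratio of 0.335. Hoxa11os, the antisense partner of Hoxa11, had 36.4 CPM in proximal cells and 283 in matched mesenchyme, a ratio of 0.129, while Hoxa11 had a ratio of 0.646; without knowing whether counting used strand, reads of the pair cannot be told apart.

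Transcripts of sex-linked genes were uneven over the libraries. Of the 134 proximal cells 83 had a UMI of Ddx3y, Eif2s3y, Kdm5d or Uty and 0 had one of Xist. Among all kept E11.5 cells 1776 had a Y-linked UMI and 9 had Xist, while at E15.5 522 had a Y-linked UMI and 1932 had Xist. The stages therefore differ in the sex of the cells as well as in time.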
